A study of Mus musculus with 14 samples.

Results

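Genes that mark the base of the colonic crypt or are transcribed in response to Wnt signals, 10 in all, were followed in RNA sequencing of sorted mouse colon cells: Lgr5, Ascl2, Smoc2, Axin2, Myc, Cd44, Slc12a2, Ephb2, Rgmb and Cdca7. They were taken by gene symbol, and each symbol matched 1 of the 55487 genes in the deposited tables, so that 10 of 10 were found. Every animal carried Tsc2 with both copies floxed (Tsc2fl/fl). Control animals had no recombinase (Tsc2fl/fl Lyz2+/+, called wt here), and the others had Cre recombinase in 1 copy of the Lyz2 locus (Tsc2fl/fl Lyz2cre/+, called cre). Lyz2 drives the recombinase in macrophages and other myeloid cells, so the epithelial libraries come from tissue in which the neighbouring macrophages were the intended target. CD45- EpCAM+ CD44+ epithelial cells gave 4 cre and 4 wt libraries, and CD64+ MHC class II+ macrophages of the lamina propria gave 3 of each genotype. By the labels, the epithelial libraries came from 3 males and 1 female in cre and from 2 of each sex in wt. The macrophage libraries came from 3 males in cre, and from 1 male and 2 females in wt. Sex thus ran partly along with genotype, above all in macrophages. Cre and the floxed Tsc2 deletion occur together in every cre animal and cannot be told apart, and no source used here gives the animals' ages. The comparison asks whether crypt base and Wnt target genes of the epithelium differed between the genotypes, with the macrophages as the reference population.

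The colonic epithelium is renewed by stem cells at the crypt base, which are kept in that state by Wnt ligands from neighbouring cells. Wnt ligands bind Frizzled receptors with the co-receptors Lrp5 and Lrp6. This stops a cytoplasmic complex, built on Axin and Apc, from marking β-catenin for destruction. β-catenin then enters the nucleus and activates transcription with TCF and LEF factors at sites whose core reads CTTTG, or CAAAG on the other strand. Its targets include growth genes such as Myc, feedback inhibitors such as Axin2, and genes that set a cell's place along the crypt such as Ephb2. R-spondins, the ligands of Lgr5, strengthen the signal by removing the ubiquitin ligases Rnf43 and Znrf3 that clear Frizzled from the surface.

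The libraries held between 7269103 and 9364551 counts. A ribosomal RNA gene took 18.5 to 31.8% of counts in the wt epithelial libraries and 7.37 to 10.6% in the cre ones, except cre library 8, which had 26.7%. Mitochondrial genes took 11.6 to 18.1% of counts in wt and 10.4 to 10.7% in cre epithelial libraries. Markers went with the labelled cell types: the summed level of 10 epithelial markers was 9289 to 13470 CPM (counts scaled to a common library size) in epithelial and 54.7 to 299.9 CPM in macrophage libraries, while 18 macrophage markers summed to 130 to 483 CPM and 45932 to 60004 CPM. Tsc2 itself measured 57.5 ± 3.66 CPM in cre and 52.0 ± 2.72 CPM in wt epithelium (mean ± SD, n = 4 each). In macrophages it measured 28.3 ± 3.98 CPM in cre and 31.3 ± 7.46 CPM in wt (mean ± SD, n = 3 each). A count over the whole gene does not separate the deleted part, so these values do not check the deletion. Library numbers below are those in the titles, which the labels do not explain. If they name animals there were 4 wt animals, whereas the series text states 3 controls, so 2 wt epithelial libraries could come from 1 animal and p-values would then be too small.

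In cre epithelium 4 of the 10 genes were lower than in wt epithelium and none was higher. These were Slc12a2, the basolateral sodium, potassium and chloride cotransporter of crypt cells, Cd44, a hyaluronan receptor, Rgmb, a co-receptor for bone morphogenetic proteins, and Cdca7, a nuclear protein of dividing cells. All 10 passed the filter on low counts. Across the 13553 epithelial genes tested with edgeR's quasi-likelihood test (Benjamini-Hochberg adjusted p under 0.05), 9.17% passed, 3.53% as lower and 5.64% as higher. The median log2 change of the 10 genes was -0.65, against -0.05 over all genes tested, and 9 of the 10 had a negative sign, as did 55.2% of all genes. Without adjustment, 6 of the 10 had a p under 0.05 in that test, as did 3696 of the 13553 genes tested. Every cre library lay below every wt library in 4 of the 10 genes, and in 6.68% of all genes tested. These are the 4 genes that the test called on the same libraries, so the gaps are not separate support for the calls. The plot of library values shows these 4 gaps beside the overlap of the other 6 genes. In bulk samples such as these, fewer cells of a type and less RNA per cell cannot be told apart.

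**Figure D1:**
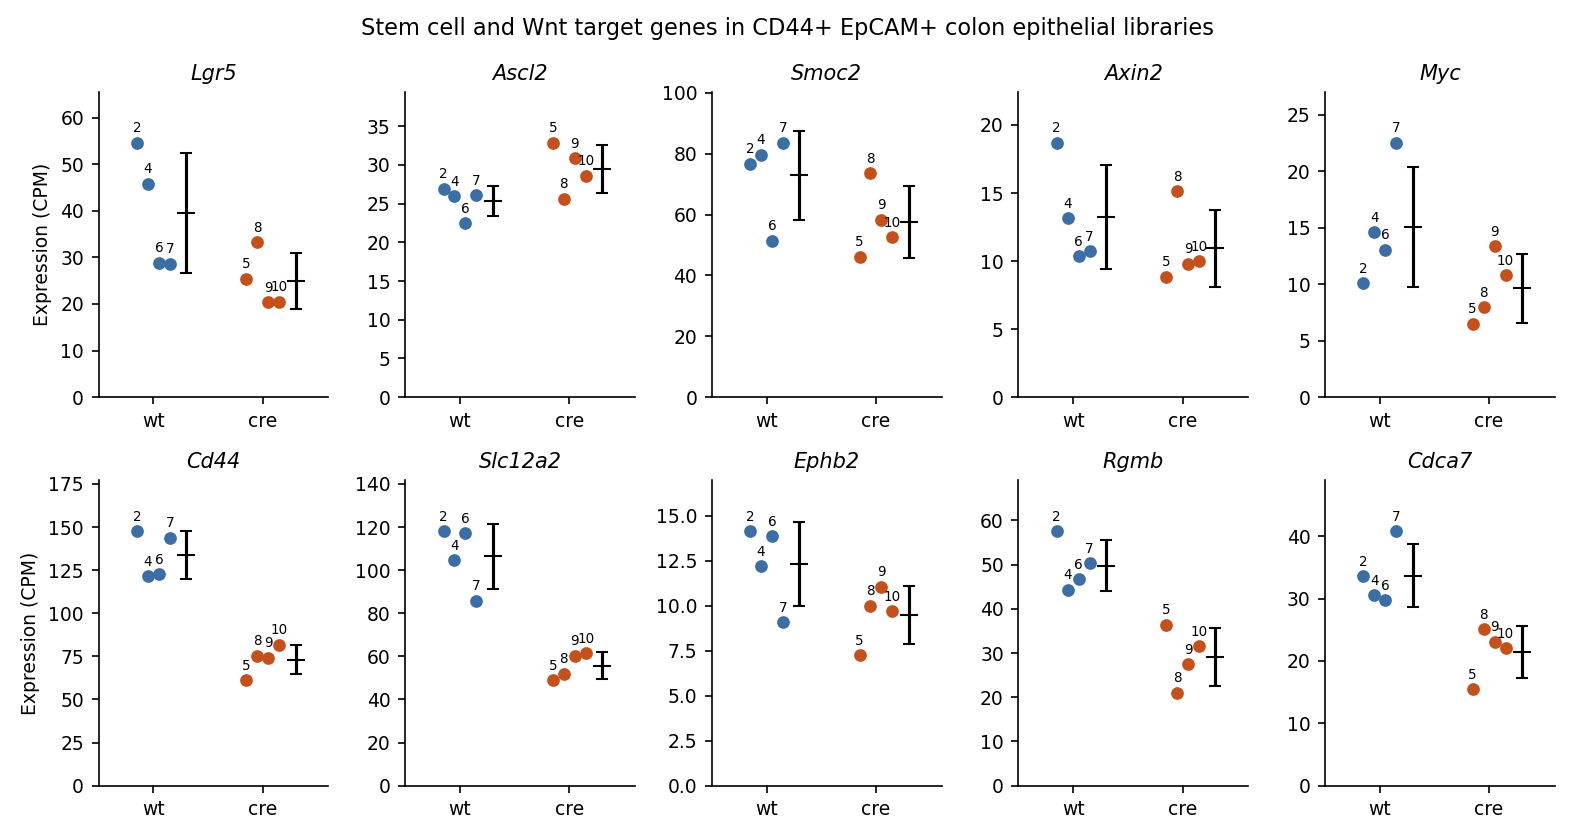
Expression in CPM, from 0, of each gene in the CD44+ EpCAM+ epithelial libraries, with 1 point per library (the small number is the one in the title), blue for wt and orange for cre, and the mean ± SD of 4 libraries in black. Cd44, Slc12a2, Rgmb and Cdca7 do not overlap between the genotypes, and the other 6 genes do.

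Slc12a2 was at 61.6, 48.9, 52.0 and 60.3 CPM in cre libraries 10, 5, 8 and 9, and at 118, 105, 117 and 85.8 CPM in wt libraries 2, 4, 6 and 7. The groups did not overlap, and even the lowest wt library, number 7, lay above the highest cre library. The log2 change was -0.93 ± 0.13 (SE), a 1.91-fold lower level, with an edgeR adjusted p of 0.00648. Cd44 was at 81.9, 61.2, 75.3 and 74.3 CPM in the cre libraries and at 148, 121, 122 and 144 CPM in the wt libraries. Its groups were also apart, with a log2 change of -0.87 ± 0.12 (SE), or 1.83-fold lower, and an edgeR adjusted p of 0.00648. CD44 protein was used to sort these cells, and the labels call them CD44 high, so the Cd44 transcript differed within cells that had all passed a gate on its product.

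Rgmb was at 31.6, 36.4, 21.0 and 27.5 CPM in cre libraries 10, 5, 8 and 9 and at 57.5, 44.3, 46.7 and 50.3 CPM in wt libraries 2, 4, 6 and 7. The log2 change was -0.77 ± 0.16 (SE), or 1.70-fold lower, with an edgeR adjusted p of 0.0126. Cre library 8 was the lowest, and cre library 5 came nearest to the wt range. Cdca7 was at 22.1, 15.4, 25.1 and 23.1 CPM in cre and at 33.6, 30.5, 29.8 and 40.8 CPM in wt libraries. The log2 change was -0.66 ± 0.17 (SE), or 1.58-fold lower, with an edgeR adjusted p of 0.0274, and cre library 5 was the lowest of all 8.

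How firmly these 4 calls held differed between the genes. Leaving out any 1 of the 8 libraries left Slc12a2 and Cd44 past the threshold (adjusted p at most 0.0342). Rgmb lost its call without cre library 9 (adjusted p 0.0569). Cdca7 lost it without cre library 10, 5 or 9 (0.0701, 0.0906 and 0.0738) and without wt library 2 or 7 (0.0563 and 0.0636). With the ribosomal RNA share as a covariate none of the 4 passed, at log2 changes of -0.94 for Slc12a2, -0.86 for Cd44, -1.04 for Rgmb and -0.54 for Cdca7, in a fit that called 3 of all genes against 1243 without the covariate. With sex as a covariate all 4 passed (adjusted p 0.00536 for Slc12a2, 0.00485 for Cd44, 0.0137 for Rgmb and 0.0120 for Cdca7). None passed in males alone, 3 cre and 2 wt libraries (adjusted p 0.122 for Slc12a2, Cd44 and Rgmb and 0.165 for Cdca7). The log2 changes in males were -0.80 for Slc12a2, -0.78 for Cd44, -0.85 for Rgmb and -0.59 for Cdca7. None passed on FPKM without a filter (0.0520 for Slc12a2 and Cd44). With all libraries in 1 fit Rgmb and Cdca7 did not pass (0.127 and 0.252).

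The other 6 genes overlapped between the genotypes. Lgr5, the R-spondin receptor that marks crypt base stem cells, was at 20.5, 25.4, 33.3 and 20.4 CPM in cre libraries 10, 5, 8 and 9. In wt libraries 2, 4, 6 and 7 it was at 54.6, 45.8, 28.8 and 28.6 CPM. Cre libraries 5, 9 and 10 lay under every wt library, and cre library 8 lay above wt libraries 6 and 7. The log2 change was -0.67 ± 0.22 (SE), as large as that of Cdca7, with an edgeR adjusted p of 0.0698. Lgr5 passed the threshold without cre library 8 (adjusted p 0.0262), without wt library 6 (0.0332), without wt library 7 (0.0462) and by DESeq2 (0.0328). It also passed by edgeR without the filter on low counts (adjusted p 0.00172). Cre library 8 and wt library 6 are the epithelial libraries with the most ribosomal RNA, and without both the log2 change of Lgr5 was -0.96 (adjusted p 0.00400). That pair was chosen after the data were seen. Cre library 8 had the highest cre value of Lgr5 and wt library 6 nearly the lowest wt value. Leaving them out therefore widens the gap by itself. Within wt, libraries 2 and 4, with the higher Lgr5 values, came from females, and 6 and 7 came from males. In males alone the log2 change of Lgr5 was -0.22 (edgeR adjusted p 0.660), and with sex as a covariate it was -0.50 (edgeR adjusted p 0.129).

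Smoc2, a secreted matrix protein enriched in stem cells, was at 52.5, 46.1, 73.7 and 58.3 CPM in cre and at 76.7, 79.7, 51.5 and 83.6 CPM in wt libraries. Cre library 8 stood among the wt values and wt library 6 among the cre values. Its log2 change was -0.34 ± 0.17 (SE) with an edgeR adjusted p of 0.199, which became -0.61 with 0.00232 without those libraries and -0.47 with 0.0481 without wt library 6 alone. That pair was chosen after the data were seen. For Smoc2 they are the highest cre and the lowest wt library, so leaving them out widens the gap by itself. Ascl2, a transcription factor of crypt stem cells, was the only member with a positive sign. It was at 28.6, 32.9, 25.6 and 30.8 CPM in cre and at 26.9, 25.98, 22.5 and 26.1 CPM in wt libraries, a log2 change of 0.22 ± 0.13 (SE) with an edgeR adjusted p of 0.313. With all 8 libraries, edgeR's test with its filter called none of the stem cell genes Lgr5, Smoc2 and Ascl2.

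Axin2, the feedback scaffold of the destruction complex, was at 9.997, 8.85, 15.1 and 9.80 CPM in cre and at 18.7, 13.2, 10.4 and 10.7 CPM in wt libraries, from 65 to 152 counts each. The log2 change was -0.29 ± 0.23 (SE) with an edgeR adjusted p of 0.440, and in males alone its sign turned (0.14). Myc, a transcription factor that drives growth, was at 10.8, 6.495, 7.94 and 13.4 CPM in cre and at 10.1, 14.6, 13.1 and 22.5 CPM in wt libraries. Wt libraries 4 and 7 lay above every cre library, and the log2 change was -0.64 ± 0.26 (SE) with an edgeR adjusted p of 0.130, or 0.0470 with sex as a covariate. Ephb2, the receptor that positions cells along the crypt, was at 9.70, 7.25, 9.99 and 11.0 CPM in cre and at 14.1, 12.2, 13.9 and 9.08 CPM in wt libraries. Wt libraries 2, 4 and 6 lay above every cre library, and the log2 change was -0.37 ± 0.20 (SE) with an edgeR adjusted p of 0.243.

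The order of the libraries differed between the genes. Among the cre libraries, number 5 was the lowest in 7 genes and the highest in Ascl2 and Rgmb. Cre library 8 was the highest in 4 genes, Lgr5, Axin2, Smoc2 and Cdca7, and the lowest in Ascl2 and Rgmb. Among the wt libraries, number 2 was the highest in 7 genes, and number 6 was the lowest in Ascl2, Axin2, Smoc2 and Cdca7. Over the 8 epithelial libraries, which share their genotype groups, the log2 CPM of Cd44 followed those of Cdca7 (Pearson r = 0.927) and Slc12a2 (r = 0.921), and Lgr5 followed Axin2 (r = 0.857). Ascl2 ran against each of the other 9 genes, with r between -0.71 and -0.30, whereas 35 of the 36 pairs without Ascl2 had a positive r. These are descriptions of 8 libraries that differ in genotype and in ribosomal RNA share.

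Likeness to Lgr5 over the 8 libraries was ranked for the 9725 epithelial genes whose mean reached 5 CPM. First were Sec24d (r = 0.980), a coat protein of secretory vesicles, and Trpm5 (r = 0.973), a cation channel of tuft cells. Arfip1 (r = 0.970), Acer3 (r = 0.964) and the pseudogene Tcea1-ps1 (r = 0.962), whose reads may be shared with its parent gene, came next. None of these 5 passed the epithelial genotype test (edgeR adjusted p 0.0606 to 0.354). An unadjusted p under 0.05 was seen in 3 of the 5, and in 3696 of all 13553 epithelial genes tested.

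In macrophages the genotypes could be compared for 6 of the 10 genes, and none passed edgeR's test. No member had an unadjusted p under 0.05 and DESeq2 called none. Of 14087 macrophage genes, 0.944% passed edgeR's test and 1802 had an unadjusted p under 0.05. Lgr5, Ascl2, Axin2 and Ephb2 failed the filter, with 0 to 19, 0 to 4, 1 to 7 and 0 to 3 counts per library. Slc12a2 was at 4.98, 3.34 and 4.01 CPM in cre macrophage libraries 10, 8 and 9 and at 2.05, 1.98 and 3.20 CPM in wt libraries 2, 4 and 6. Every cre value lay above every wt value, as it did for 10.3% of macrophage genes, and the log2 change was 0.77 ± 0.41 (SE) with an edgeR adjusted p of 0.485. All cre macrophage libraries came from males, and wt library 6, the highest wt value, came from the only wt male among them. With sex as a covariate the log2 change of Slc12a2 was 0.36 (edgeR adjusted p 0.925). Cd44 was at 626, 470 and 645 CPM in cre and at 780, 597 and 687 CPM in wt macrophages, with overlapping groups, a log2 change of -0.25 ± 0.18 (SE) and an edgeR adjusted p of 0.636. Myc, at 24.9, 10.2 and 23.4 CPM in cre and 21.0, 31.9 and 25.1 CPM in wt macrophages, gave -0.41 ± 0.33 (SE) with an edgeR adjusted p of 0.688. Rgmb gave -0.61 ± 0.36 (SE), Smoc2 1.59 ± 0.78 (SE) and Cdca7 -0.05 ± 0.66 (SE), with edgeR adjusted p of 0.540, 0.443 and 0.987. Smoc2 rested on 1 to 28 counts and Cdca7 on 5 to 24 counts per library.

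**Figure D2:**
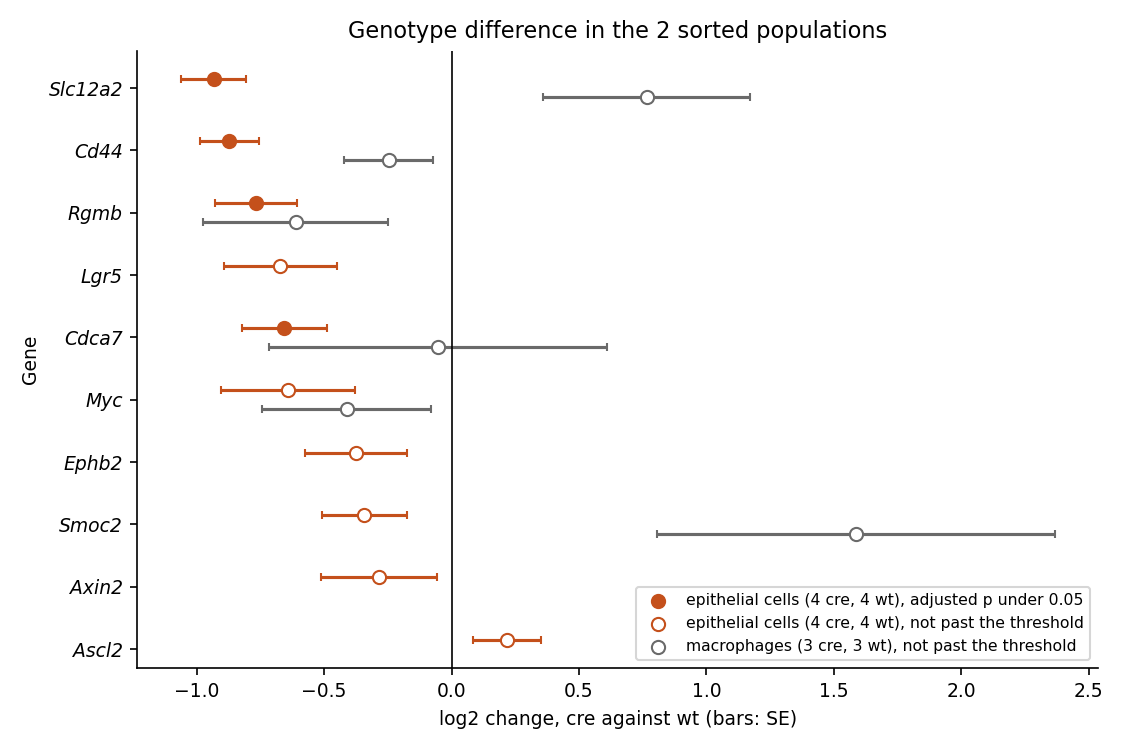
Log2 change of cre against wt (points, with bars for the SE) in epithelial cells (orange, 4 cre and 4 wt libraries) and macrophages (grey, 3 and 3), where a filled point passed the adjusted p threshold of 0.05. The 4 filled points lie between -0.93 and -0.66, all in epithelial cells, and 4 genes have no macrophage point because they failed the filter on low counts.

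Slc12a2 was the only member that passed edgeR's test for a difference in genotype change between the populations over all 14 libraries. It was lower in cre epithelium and had a positive sign in cre macrophages, and the difference of the 2 changes was -1.67 ± 0.29 on the log2 scale (SE, edgeR adjusted p 0.0127). In this test 0.702% of 16375 genes passed. All 10 members had a negative difference, as did 8643 of the 16375 genes, but 4 of the 10 rest on the near-empty macrophage counts given above. The difference for Cd44 was -0.60 ± 0.21 (SE, edgeR adjusted p 0.202), so a weaker change of Cd44 in macrophages was not shown. That for Smoc2 was -1.85 ± 0.59 (SE, edgeR adjusted p 0.159), and it passed by DESeq2 and without wt macrophage library 2. The macrophage level of Slc12a2 rests on 15 to 36 counts per library. Epithelial RNA at the share given below would supply 13.2% of it in cre and 54.5% in wt. The call for Slc12a2 was lost with the number in the titles as a replicate block (difference -1.72, adjusted p 0.114), without cre macrophage library 10 (-1.50, adjusted p 0.0535) and after removal of a trend on GC content and length (-1.23, adjusted p 0.05004).

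Levels per length, in the deposited FPKM (counts divided by a gene factor and a library factor), placed the 10 genes in wt epithelium in the following order. Smoc2 (16.4 ± 3.32 FPKM, SD, n = 4) and Cd44 (16.2 ± 1.74 FPKM) came first and overlapped. Slc12a2 (11.1 ± 1.52 FPKM), Ascl2 (10.7 ± 0.848 FPKM) and Cdca7 (9.49 ± 1.49 FPKM) followed below all Cd44 values, and each overlapped the next. Lgr5 (5.71 ± 1.85 FPKM), Rgmb (4.83 ± 0.569 FPKM), Myc (4.21 ± 1.52 FPKM) and Axin2 (2.12 ± 0.610 FPKM) were the next run of overlapping neighbours, and Ephb2 (0.771 ± 0.142 FPKM) was the lowest. In cre epithelium the mean of Cd44 was 9.09 ± 1.04 FPKM and that of Slc12a2 was 6.002 ± 0.640 FPKM, against 13.3 ± 2.79 FPKM for Smoc2 and 12.8 ± 1.34 FPKM for Ascl2 (SD, n = 4 each).

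Between the sorted populations all 10 members passed the test, which asked for a 2-fold difference as well as the adjusted p, and which 52.2% of 16375 genes passed. Of these, 8 were higher in epithelium, where 22.5% of genes were, and 2 were higher in macrophages, where 29.7% were. Ascl2 led with a log2 difference of 6.58 ± 0.26 (SE), followed by Ephb2 (6.47 ± 0.41), Smoc2 (4.94 ± 0.30), Lgr5 (4.90 ± 0.43), Axin2 (4.66 ± 0.38), Slc12a2 (4.30 ± 0.15) and Cdca7 (3.37 ± 0.27). Rgmb was nearest to equal, at 1.23 ± 0.19 (SE). Cd44 and Myc went the other way, at -2.98 ± 0.11 and -1.20 ± 0.23 (SE). Cd44 reached 112.8 ± 15.1 FPKM in wt and 94.9 ± 17.1 FPKM in cre macrophages (SD, n = 3 each), and Myc 9.85 ± 2.08 FPKM and 7.39 ± 3.15 FPKM.

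**Figure D3:**
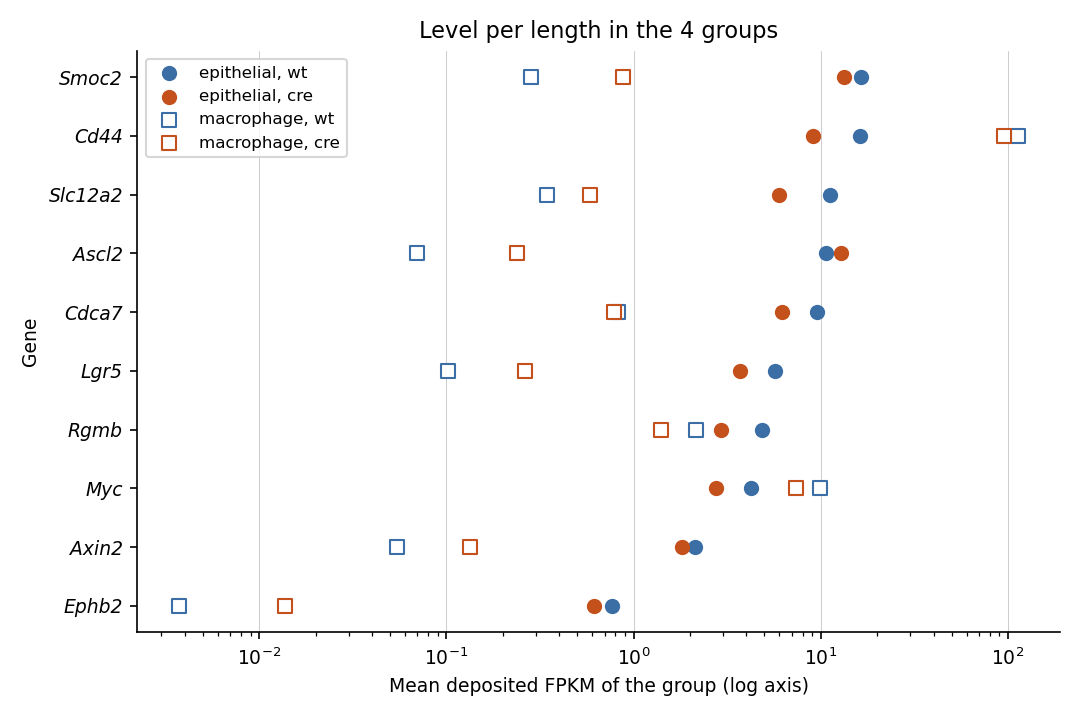
Mean deposited FPKM of each gene (log axis) in epithelial (filled circles) and macrophage groups (open squares), wt in blue and cre in orange, ordered by the wt epithelial level. Cd44 and Myc have their squares to the right of the circles, and the other 8 genes have them to the left.

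Because Cd44 is so abundant in macrophages, the trace of macrophage RNA in the epithelial libraries was set beside it. All 16 macrophage markers tested had a negative log2 change in cre epithelium, as did 55.2% of all epithelial genes. Of the 16, 6 fell (Lyz2, Laptm5, Cybb, H2-Aa, Ptprc and C1qa), where 3.53% of all genes were called lower. Lyz2 alone kept its call without any 1 library. Cre sits in 1 copy of the Lyz2 locus in the cre animals, so its count is not a plain measure of macrophage RNA. The sum of 18 such markers was 130 to 274 CPM in cre and 196 to 483 CPM in wt epithelial libraries, and none of the 18 was at 0 in every library of a group. The mean sum was 0.357% of that in cre macrophages and 0.584% of that in wt macrophages. A share of that size would carry 3.46% of the measured Cd44 level in cre and 3.75% in wt epithelium, 0.882% and 1.25% of Myc, and at most 0.238% of any other member. In the other direction, epithelial markers in macrophage libraries summed to 1.19% (cre) and 1.54% (wt) of their epithelial level. Such a share would give 18.4% (cre) and 95.0% (wt) of the mean Lgr5 level in macrophage libraries, 19.5% and 95.8% of that of Smoc2, and 13.2% and 54.5% of that of Slc12a2. For Axin2 it would give 17.1% and 65.9%, for Cdca7 10.2% and 19.4%, for Ascl2 68.3% and 257%, and for Ephb2 57.0% and 350%, which is more than was measured for Ascl2 and Ephb2 in wt. The summed level of 12 stroma markers was 982 to 3091 CPM in cre and 3362 to 5422 CPM in wt macrophage libraries. The part of stroma cells in the macrophage values of these genes was not tested.

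The epithelial change went with the base composition and the length of the transcripts. Over the 10 members the log2 change rose with the GC content of the longest transcript (Pearson r = 0.858, 10 genes, as a description). It fell with the log2 length of that transcript (Pearson r = -0.463, 10 genes, as a description). Slc12a2, Cd44 and Lgr5 have the lowest GC content (44.2, 44.5 and 44.7%) and Ascl2 has the highest (59.6%) and the shortest transcript (1605 bases). The same direction held over all epithelial genes tested, with Spearman's rho of 0.328 for GC content and -0.37 for length. When a trend on GC content and length was removed in each library, the change was -0.56 for Slc12a2 (edgeR adjusted p 0.0183), -0.56 for Cd44 (0.0179) and -0.70 for Cdca7 (0.0260). Rgmb then stood at -0.49 (0.115), Lgr5 at -0.41 (0.242), Myc at -0.77 (0.0838) and Ascl2 at 0.03 (0.928). The correlation over the members became 0.559. Slc12a2, Cd44 and Cdca7 thus still passed and Rgmb did not.

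**Figure D4:**
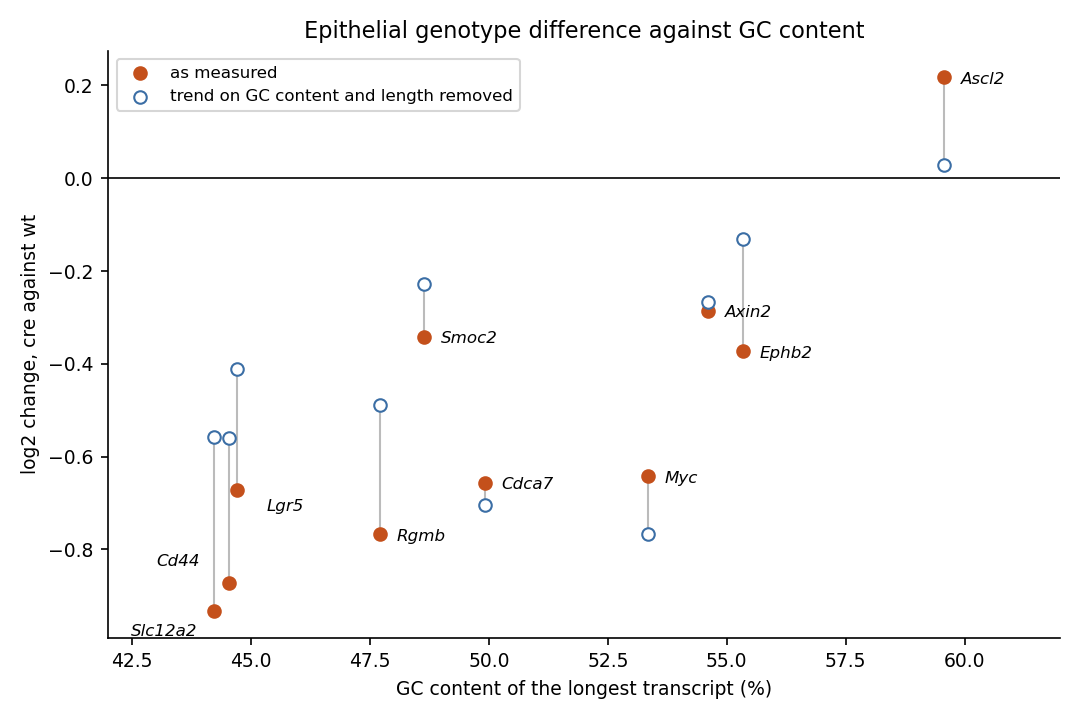
Epithelial log2 change of cre against wt for each gene against the GC content of its longest annotated transcript, as measured (filled orange) and with a trend on GC content and length removed in each library (open blue), joined by a grey line. Slc12a2, Cd44, Lgr5 and Rgmb move up when the trend is removed, Ascl2 moves to near 0, and Cdca7 and Myc move down.

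The rest of the Wnt pathway gave few calls. Of 88 listed genes of the pathway, 48 were expressed enough in epithelium to be tested, 1 rose and 1 fell, against 9.17% called over all genes. Their median log2 change was -0.38, against -0.05 over all genes, and 39 of 48 had a negative sign, as did 55.2% of all genes. By DESeq2, 7 of them passed, a count that cannot be set against the 9.17%, which is edgeR's share. The gene that fell was Ctnnb1, which encodes β-catenin, from 100.4 ± 5.22 in wt to 74.2 ± 10.9 CPM in cre libraries (SD, n = 4 each), a log2 change of -0.44 ± 0.12 (SE) with an edgeR adjusted p of 0.0353. The gene that rose was Fzd9, a Frizzled receptor, from 10.4 ± 2.62 to 17.6 ± 3.56 CPM (SD, n = 4 each), with 0.76 ± 0.21 (SE) and an edgeR adjusted p of 0.0365. Both calls were lost without single libraries: Ctnnb1 lost its call without cre library 5, 9 or 10 or wt library 2, 4 or 7 (adjusted p up to 0.105), and Fzd9 without cre library 5, 9 or 10 or wt library 6 or 7 (up to 0.141). With the trend on GC content and length removed neither passed (0.0608 and 0.0954).

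Among the secretion and receptor genes, Wls, which carries Wnt ligands to the cell surface, measured 128 ± 11.2 CPM in wt epithelium and 112 ± 4.53 CPM in cre. Lrp5, the co-receptor, stood at 14.7 ± 1.46 and 19.0 ± 5.94 CPM, and Rnf43 at 14.7 ± 2.34 and 11.2 ± 1.52 CPM (SD, n = 4 each). Their edgeR adjusted p were 0.208, 0.260 and 0.162. Of the Wnt ligands, Wnt11 was the most abundant in macrophage libraries, at 41.9 ± 8.11 CPM in wt animals and 31.3 ± 10.6 in cre animals (SD, n = 3 each), with a log2 change of -0.42 ± 0.28 (SE) and an edgeR adjusted p of 0.599. In epithelium it had 0 to 9 counts per library. Wnt5a measured 4.94 ± 2.90 in wt and 8.36 ± 5.57 CPM in cre macrophages (SD, n = 3 each, edgeR adjusted p 0.681). Stroma markers in the macrophage libraries summed lower in cre than in wt, as given above. The part of stroma cells in these ligand levels was not tested.

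Among 20 further Wnt target genes tested in epithelium, edgeR called none. The lists share genes: Lgr4, Rnf43, Znrf3 and Tcf7 are also in the pathway list, and Sox9 and Tnfrsf19 also in the stem cell list below. Of the 20 genes, 7 had an unadjusted p under 0.05 by edgeR, as did 3696 of all 13553 genes tested. DESeq2 called 4, and its share over all genes is not given here. The median log2 change of the 20 was -0.18. Cdx1, a homeobox factor of the gut and the most abundant of them, measured 318 ± 23.8 CPM in the wt and 265 ± 4.95 in the cre libraries (SD, n = 4 each, edgeR adjusted p 0.0701). Among 19 further stem cell genes tested, 2 fell and none rose (10.53%, near the 9.17% called over all genes), with a median of -0.25 and 17 negative signs, where 55.2% of all genes had a negative sign. Sorl1, a sorting receptor, fell from 38.1 ± 4.70 to 23.1 ± 2.57 CPM (SD, n = 4 each), by 0.72 on the log2 scale with an SE of 0.14 and an edgeR adjusted p of 0.00978. Ets2, an ETS family transcription factor, fell from 233 ± 19.7 to 174 ± 20.1 CPM (SD, n = 4 each), with an edgeR adjusted p of 0.0242. Sorl1 lost its call without cre library 9 (adjusted p 0.0517), and Ets2 without cre library 5, 9 or 10 or wt library 2 (up to 0.0998). With the trend on GC content and length removed, Sorl1 had an adjusted p of 0.0758 and Ets2 of 0.0371. The members' median lay below that of each of these lists, as the plot by list shows. This order is a description only, because members and lists were chosen with earlier results of these data known. No trend on GC content and length was removed for these medians.

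**Figure D5:**
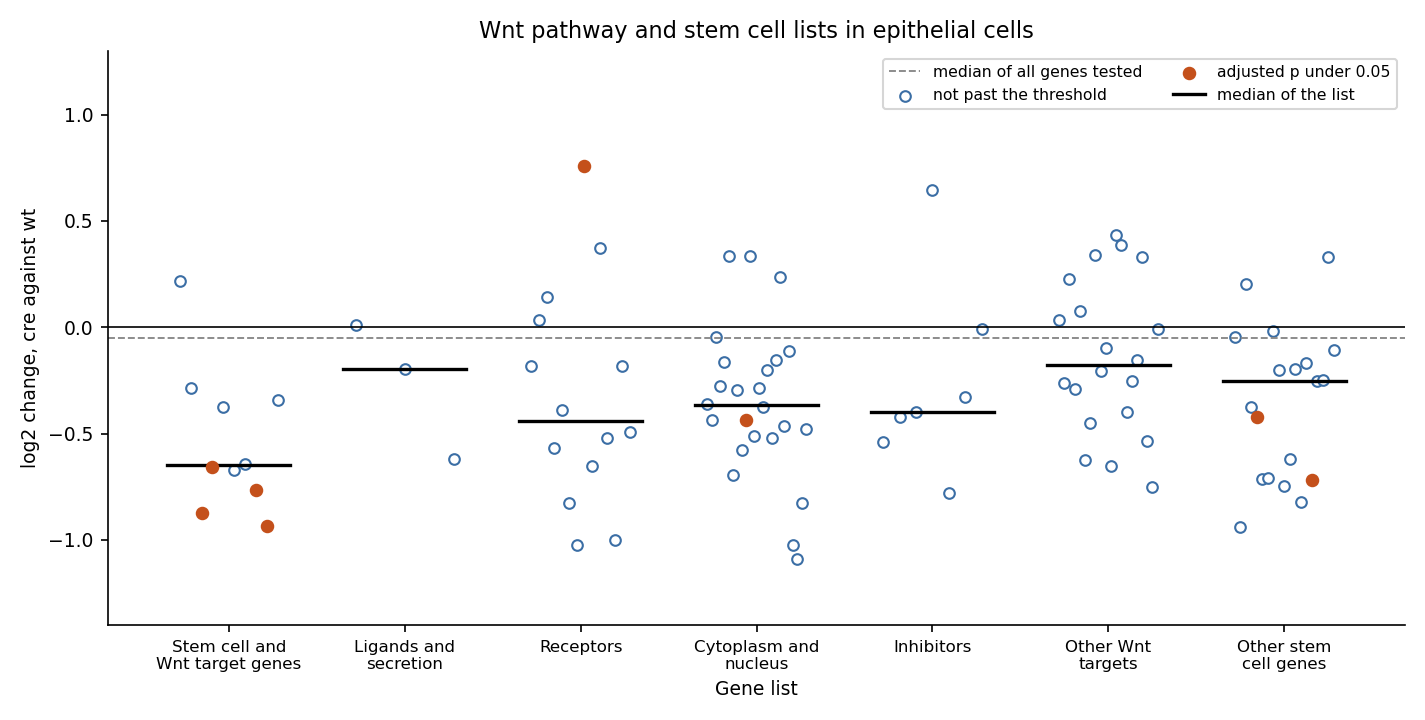
Epithelial log2 change of cre against wt for each tested gene (points, in alphabetical order within a list), with the list median as a black bar and the median of all genes tested as a dashed line; filled points passed the adjusted p threshold of 0.05. The median is -0.65 for the 10 genes at the left, -0.18 for the other Wnt targets and -0.25 for the other stem cell genes, against -0.05 over all genes tested.

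Lists of other crypt compartments had few calls. The share called was 14.3% for proliferation, 5% for colonocyte, 15.4% for goblet and deep crypt secretory and 9.09% for BMP, Notch and EGF genes, on 1 to 4 genes each and near the 9.17% of all epithelial genes, so the counts are not a result about these lists. Of 28 proliferation genes, 3 rose (Birc5, Foxm1 and Tyms) and 1 fell (Top2a), with a median log2 change of 0.14. Foxm1, a cell cycle transcription factor, went from 3.71 ± 1.61 to 8.41 ± 2.33 CPM and Birc5, a mitotic regulator, from 82.0 ± 18.7 to 127 ± 9.88 CPM (SD, n = 4 each). Of 20 colonocyte genes, 1 rose, the carbonic anhydrase gene Car1, from 1527 ± 135 to 2352 ± 294 CPM (SD, n = 4 each), and the median was -0.04. Of 13 goblet and deep crypt secretory genes, Agr2 rose (log2 change 0.52) and the chloride channel gene Cftr fell (-0.67). Of 22 genes of BMP, Notch and EGF signalling, the BMP receptor genes Bmpr1a (-0.68) and Bmpr2 (-1.20) fell. All of these had an edgeR adjusted p between 0.00701 and 0.0485. Car1 kept its call without any 1 library. The other 8 lost it without cre library 9, and all of those but Cftr without cre library 5. Foxm1, Tyms, Bmpr1a and Bmpr2 also lost it without cre library 10, Birc5, Foxm1, Tyms, Top2a, Bmpr1a and Bmpr2 without wt library 2, Foxm1, Top2a, Bmpr1a and Bmpr2 without wt library 4, Tyms and Bmpr2 without wt library 6, and Tyms without wt library 7 (adjusted p up to 0.159). Top2a, Cftr, Bmpr1a and Bmpr2 no longer passed with the trend on GC content and length removed (adjusted p 0.247 to 0.297).

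For a view of the start sites, RefSeq windows of 250 bases before to 50 after the transcription start (GRCm38.p6) were read for the members that have an entry, which are Cdca7, Cd44, Ephb2, Ascl2, Axin2 and Rgmb, the last with 3 starts. Lgr5, Smoc2, Myc and Slc12a2 are named only. The TCF site in its forms CTTTGAA and CTTTGAT was searched on both strands, as was the shorter core CTTTG, which both forms contain. Neither 7-letter form occurs in any of the 8 windows, where 8.65% of 32851 promoters hold 1 or both. The core occurs in 2 of the 8 windows and in 53.9% of all promoters. The windows of the 3 genes that fell and have an entry are printed, with that of Ascl2, the member with a positive sign, in 5′ to 3′ direction on the gene's strand and with the core in capitals. The Cd44 window lies at chr2:102901616-102901915 (minus strand), the Rgmb window with the core at chr17:15831016-15831315 (minus), the Cdca7 window at chr2:72475969-72476268 (plus) and the Ascl2 window at chr7:142969215-142969514 (minus).
Cd44: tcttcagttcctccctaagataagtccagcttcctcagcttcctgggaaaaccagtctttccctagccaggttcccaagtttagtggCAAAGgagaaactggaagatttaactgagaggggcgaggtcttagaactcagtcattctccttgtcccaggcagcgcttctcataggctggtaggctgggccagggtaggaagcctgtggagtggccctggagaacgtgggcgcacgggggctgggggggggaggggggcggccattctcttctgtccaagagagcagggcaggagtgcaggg
Rgmb: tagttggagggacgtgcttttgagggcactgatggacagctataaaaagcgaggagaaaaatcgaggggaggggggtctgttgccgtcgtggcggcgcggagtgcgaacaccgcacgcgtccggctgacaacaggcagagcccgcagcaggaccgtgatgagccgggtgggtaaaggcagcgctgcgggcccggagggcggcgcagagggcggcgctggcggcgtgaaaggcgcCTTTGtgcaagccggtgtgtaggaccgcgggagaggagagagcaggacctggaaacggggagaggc
Cdca7: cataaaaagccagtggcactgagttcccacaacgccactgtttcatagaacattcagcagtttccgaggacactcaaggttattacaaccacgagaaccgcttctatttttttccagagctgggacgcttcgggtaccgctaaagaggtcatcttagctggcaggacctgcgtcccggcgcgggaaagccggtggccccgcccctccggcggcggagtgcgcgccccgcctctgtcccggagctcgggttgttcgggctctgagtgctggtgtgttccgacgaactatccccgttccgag
Ascl2: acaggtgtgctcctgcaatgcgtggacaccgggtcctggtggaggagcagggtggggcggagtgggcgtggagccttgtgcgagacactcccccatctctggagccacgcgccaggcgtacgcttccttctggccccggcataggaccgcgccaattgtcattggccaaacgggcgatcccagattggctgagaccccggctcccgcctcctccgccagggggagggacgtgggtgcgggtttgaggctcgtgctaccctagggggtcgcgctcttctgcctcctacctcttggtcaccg
In Cd44 the core stands on the opposite strand, 163 bases before the start, and in Rgmb it stands on the gene's strand, 16 bases before the start. These are matches of letters and not measured binding sites, and the windows do not reach distal elements.

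In the deposited annotation (GRCm38) the genes that fell are Slc12a2 on chromosome 18 (57878678 to 57946821, plus strand), Cd44 on chromosome 2 (102811141 to 102901665, minus), Rgmb on chromosome 17 (15803188 to 15831039, minus) and Cdca7 on chromosome 2 (72476159 to 72486893, plus). Lgr5 lies on chromosome 10 (115450311 to 115587780, minus) and Ascl2 on chromosome 7 (142966829 to 142969264, minus). Smoc2 lies on chromosome 17 (14279506 to 14404790, plus), Axin2 on chromosome 11 (108920349 to 108950783, plus), Myc on chromosome 15 (61985391 to 61990374, plus) and Ephb2 on chromosome 4 (136647539 to 136835988, minus). Each count covers the whole gene, so isoforms of Cd44, which is spliced in many forms, were not separated.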

How the data were processed

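RNA of cells sorted from mouse colon was copied by Smart-seq2, made into Nextera XT libraries and sequenced as single reads without strand, per the labels' protocols, so reads of a gene and its antisense partner are counted together. Per the submitters' processing notes, STAR 2.5.2b, DESeq2 1.24.0, Picard 2.19.2 and GRCm38 were used; no source used here names the counter or annotation release. The deposited tables hold counts (whole numbers, not normalized) and FPKM, which equals the count over 1 factor per gene and 1 per library. Groups, library numbers and sex come from the labels. The members and gene lists were chosen with earlier results of these data known.

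The tool was edgeR 4.0.16 (R 4.3.3) on the deposited counts, with TMM factors, a filterByExpr minimum of 10, quasi-likelihood F tests with robust fitting, and Benjamini-Hochberg adjusted p under 0.05 over all genes tested. Genotype was tested in each population by itself. The difference of the 2 genotype changes, and that between populations (which also needed an absolute log2 change of 1), used all 14 libraries. The SE was taken as the absolute log2 change over the square root of F. CPM are scaled within a population's fit, and marker sums over all 14 libraries. Where nothing says that libraries came from separate animals, p-values measure only the spread between libraries.

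Named beside the members were, for each list in epithelium, the 2 genes with the smallest p past the threshold and the 2 with the highest mean CPM, the macrophage Wnt ligands with a mean of at least 5 CPM over both genotypes, and the 5 genes with the highest Pearson r to Lgr5. Not every gene this rule takes is given a value, and Tyms, Top2a, Cybb, H2-Aa, Ptprc and C1qa were named after their values were seen. GC content and length are those of the longest GENCODE vM21 transcript, and 99.9% of genes tested had both. Other settings tried were DESeq2 1.42.0, RLE scaling, no filter, a minimum count of 50, limma 3.58.1 on log2(FPKM + 1) or log2(FPKM + 0.1), sex or ribosomal RNA share as a covariate, males only, all libraries together, a block on library number, a spline trend on GC content and length removed, scaling without ribosomal, mitochondrial and pseudogene rows, and each library left out in turn. Chosen after seeing the data was leaving out cre epithelial library 8 and wt epithelial library 6 together. The main edgeR fit of each comparison was first run on simulated counts with known changes. The other settings were not run on simulated counts.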

Additional observations from a re-analysis of the deposited data

Results flagged for a closer look

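Slc12a2 was picked out because its genotype change differed between the 2 populations in a test of that difference over all 14 libraries: -1.67 on the log2 scale, with an edgeR adjusted p of 0.0127. It did not pass with the number in the titles as a replicate block (-1.72, adjusted p 0.114). It fell in cre epithelium (log2 change -0.93, lower in 4 of 4 cre libraries than in any wt library), and in macrophages it stood at 4.11 ± 0.826 CPM in cre and 2.41 ± 0.684 CPM in wt (SD, n = 3 each), from 15 to 36 counts per library. A check for single outlying libraries in the 20 epithelial groups of 4 (10 genes, 2 genotypes) picked out none, where chance gives about 1 in 20.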

How the results depend on the processing

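In epithelium 4 of the 10 genes passed, and 2 to 6 with 1 library left out, 2 of them without cre library 9. The count was 0 with FPKM and no filter, 0 in males only, 0 with the ribosomal RNA share as a covariate and 2 with all libraries together; these fits called 0, 5, 3 and 19 of all genes. Under the other alternatives it was 3 to 6. The share of all genes called under those, and with 1 library left out, is not given here, so no gain is read from the higher counts. The macrophage count was 0 under every alternative run. The count of 10 between populations was 8 to 10, lower with FPKM and with the GC and length trend removed. For the difference of genotype changes the count of 1 was 2 by DESeq2, 0 after removal of the GC and length trend, and 0 to 2 with 1 library left out (0 without cre macrophage library 10, 2 without wt macrophage library 2).

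Genotype groups share no library number. Epithelial and macrophage libraries share 6, and same-numbered pairs had correlations of -0.03 to 0.086 in their deviations from the group means, none over 0.1. Same-numbered libraries have the same genotype and sex, and whether they came from the same animal is not stated in the labels and is not settled by these correlations. With that number as a replicate block no member passed for the difference of genotype changes (count 0; Slc12a2 -1.72, adjusted p 0.114), and Myc turned to 0.26.

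The Wnt pathway count of 2 was 7 by DESeq2, 7 without filter, 4 at a minimum count of 50, 1 with FPKM and a pseudocount of 1, 0 with all libraries together, 1 with the trend removed, 5 without the 2 libraries highest in ribosomal RNA, and 0 to 6 with 1 library left out. The count of 0 for other Wnt targets was 4, 4, 2, 1, 0, 1, 2 and 0 to 1 in that order. The count of 2 for other stem cell genes was 0 with all libraries together and 0 to 4 with 1 library left out. For these lists the share of all genes called under each setting is not given here, so no excess is read from the counts.

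No member that passed the test of a comparison turned its sign in that comparison. In epithelium Axin2 was 0.14 in males. In macrophages Cdca7 was 0.13 with the ribosomal RNA covariate, 0.33 without cre library 8, 0.27 without wt library 4 and 0.11 without wt library 6, in a range of -0.45 to 0.33 with 1 library left out. For the difference of changes, Ascl2 (-1.43) was 0.028 with FPKM (pseudocount 1, with or without filter), Myc was 0.029 without cre macrophage library 10 and 0.049 without wt epithelial library 7 (range -0.48 to 0.049), and Rgmb was 0.22 with the trend removed and 0.15 without cre macrophage library 10 (range -0.42 to 0.15). The cause of these moves was not tested. Depth limits Lgr5, Ascl2, Axin2 and Ephb2 in macrophages, at 0 to 19 counts per library.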
